A study of Mus musculus with 31 samples.

Results

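Cytosolic ribosomal protein genes encode the proteins of the large and small subunits of the ribosome, the machine that translates mRNA in the cytosol. In liver RNA of fasted and fed mice, 67 of 22180 genes with a measured value were taken as members. A gene was a member if its single symbol in the platform annotation named a protein of the large subunit (Rpl and a number, with Rplp0, Rplp1 and Rplp2) or of the small subunit (Rps and a number, with Rpsa). Pseudogenes named as such and the S6 kinase genes were left out, and a gene with several probe sets was read from the one that was brightest on average. Of the 67, 42 belong to the large and 25 to the small subunit. RefSeq's annotation of GRCm38.p6 listed all 67 under the same symbol, Rpl6l as a pseudogene and Rps4l as a transcribed pseudogene. That annotation holds 84 protein-coding symbols of this form, and 19 of them were not members, 12 because their probe sets carry several symbols.

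The arrays came from 31 male C57BL/6 mice of 3 to 4 months, 1 array per mouse, with livers taken in the morning. Fast-Fast-Fast mice (7 arrays) went through 2 fasts of 16 h within 8 weeks and were killed after another 16 h fast, and Fast-Fast-Fed mice (8 arrays) had the same 2 fasts and were killed fed. Fed-Fed-Fast mice (8 arrays) had 0 earlier fasts and were killed after a 16 h fast, and Fed-Fed-Fed mice (8 arrays) had food throughout. The study asks whether earlier fasts leave a trace in the liver, so the design allows the response to the final fast within each history, the effect of history within each final state, and the difference between both responses.

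Most mammalian ribosomal protein mRNAs are TOP mRNAs, which start with a cytosine followed by a run of pyrimidines. Their translation is raised by the kinase complex mTORC1, which responds to insulin and amino acids, and is held back by the RNA-binding protein LARP1 when mTORC1 is less active. Such control can change how much ribosomal protein is made with little change in mRNA abundance. The arrays measure mRNA abundance only.

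Values are log2 signals made by the authors with RMA, so a difference of 1 is a doubling. The median signal of an array lay between 2.01 and 2.07. How precisely a value is known depends on how many arrays there were. Hepatocyte genes were bright in these livers, with mean signals of 8.59 to 13.0 for 9 measured markers. In fasted against fed mice 3 of the 9 were higher in limma, Hnf4a by 0.33 (adjusted p = 1.1e-06), Serpina1a by 0.23 and Cyp2e1 by 0.15, 2 were lower, Fgb with a change of -0.18 and Ttr with -0.15, and the other 4, Alb among them, were not called. Across the 67 members, 44 had a mean signal of 4 or more and 23 a lower one. The dim probe sets include Rplp2, Rps14, Rps16, Rps29, Rpl30 and Rpl39, whose products are regular parts of the ribosome. A signal near the array median therefore does not show that such a gene is silent, and a small change there may go unseen.

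A 16 h fast was followed by small falls in a minority of these genes and by a single rise. Averaged over both histories, 12 of the 67 members were lower in fasted than in fed livers (17.9%) and 1 was higher (1.49%), at an adjusted p under 0.05 in limma. Across all 22180 genes, 9.36% were called lower and 9.79% higher. The members that fell are Rps4x, Rpl38, Rps24, Rpl23a, Rpl15, Rpsa, Rpl4, Rps12, Rpl13, Rps29, Rpl7a and Rpl21, and Rps9 rose. Bright genes are called more often: among genes with a mean signal of 4 or more, 20.3% were lower and 22% higher, against 11 lower and 1 higher of 44 such members. The count of lower members is thus close to that background, while the median change of the 44 bright members was -0.07 against 0.0094 for the 7863 bright genes. Over all members the median was -0.02 with 40 of 67 below 0, against a median of -0.0017 over all genes.

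All of these changes were small. The widest change of any member was -0.32, and the median size of the called changes was 0.19 for members and 0.34 for all called genes. For 65 of the 67 members the 95% interval of the fasting change lay within 0.5 either side of 0, that is within 1.41-fold, which held for 89.3% of all genes. The exceptions were Rps13 (interval -0.59 to -0.06) and Rpl37 (interval -0.0038 to 0.53).

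**Figure D1:**
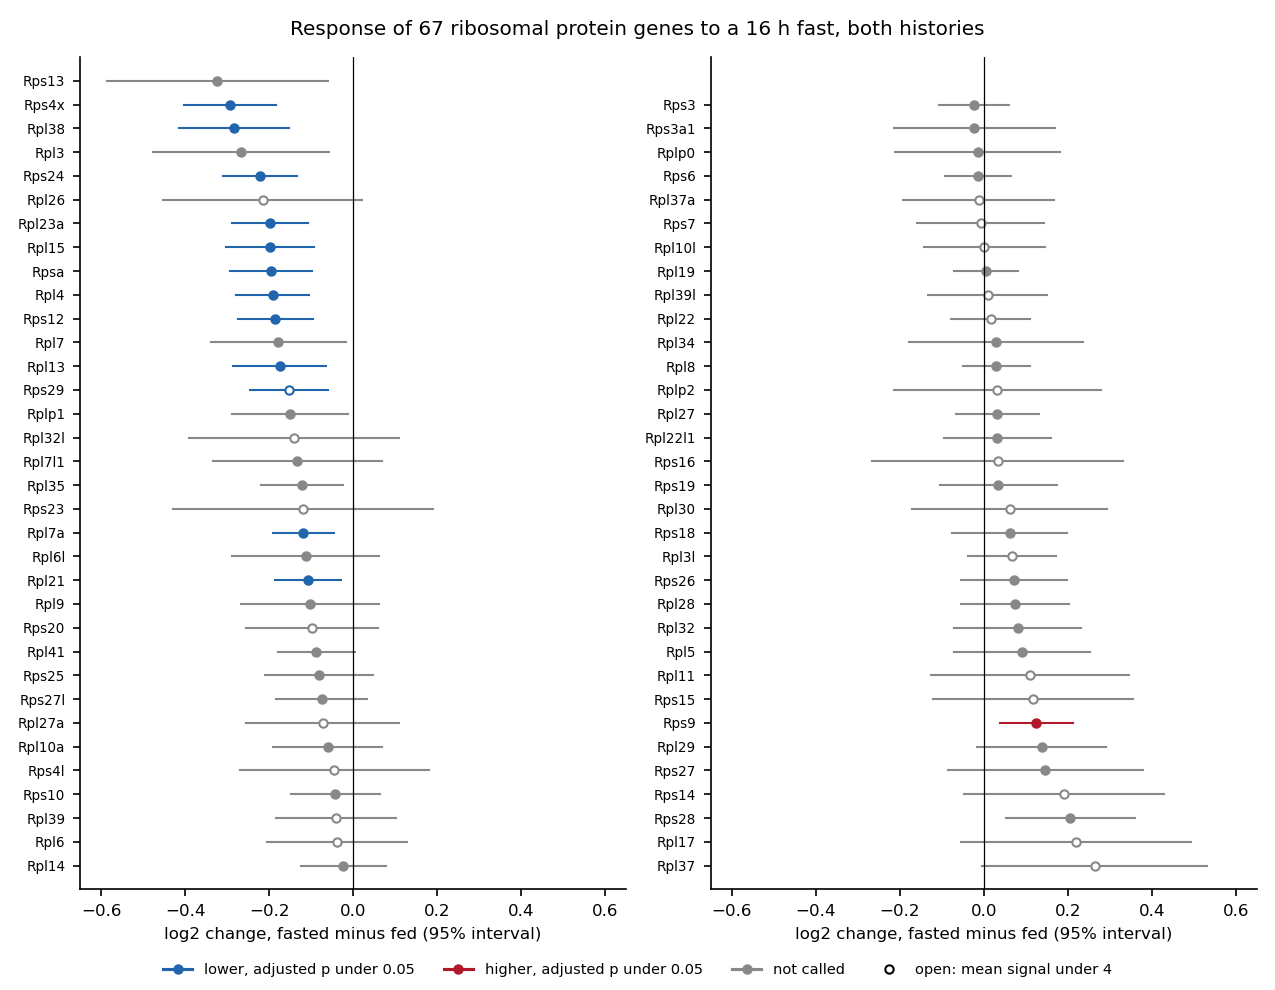
Log2 change (fasted minus fed, averaged over both histories) of each of the 67 members, with its 95% interval from limma, sorted from the lowest to the highest. Blue points were called lower, the red point (Rps9) higher and grey points neither, and open points have a mean signal under 4. The 12 blue points lie between -0.29 and -0.11, and most grey intervals cross 0.

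Before the values, the DNA around the annotated transcription start is shown for 8 of the lower members and, for contrast, for Rps9, which rose, and for Rps6 and Rpl28, whose signals were among the brightest and were not called. Each stretch holds 30 bases before and 20 from the start on, 5′ to 3′ on the strand of the gene, from RefSeq's GRCm38.p6, and capitals mark its longest run of C and T. In a TOP mRNA such a run sits at the start itself.
Rpl15 (chr14:18270967-18271016, minus strand): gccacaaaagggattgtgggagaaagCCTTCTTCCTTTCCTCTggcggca
Rpl38 (chr11:114668550-114668599, plus strand): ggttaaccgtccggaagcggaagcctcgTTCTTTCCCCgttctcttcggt
Rpl7a (chr2:26910777-26910826, plus strand): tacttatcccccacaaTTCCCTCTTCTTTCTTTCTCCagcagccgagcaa
Rps24 (chr14:24490648-24490697, plus strand): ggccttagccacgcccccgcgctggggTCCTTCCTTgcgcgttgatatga
Rpl4 (chr9:64173357-64173406, plus strand): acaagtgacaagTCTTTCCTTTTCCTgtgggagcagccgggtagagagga
Rps12 (chr10:23787190-23787239, minus strand): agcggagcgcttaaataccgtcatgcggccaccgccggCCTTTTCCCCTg
Rpsa (chr9:120127736-120127785, plus strand): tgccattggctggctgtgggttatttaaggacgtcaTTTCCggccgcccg
Rps4x (chrX:102189372-102189421, minus strand): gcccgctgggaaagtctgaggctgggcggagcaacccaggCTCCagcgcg
Rps9 (chr7:3704011-3704060, plus strand): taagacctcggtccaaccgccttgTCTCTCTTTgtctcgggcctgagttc
Rps6 (chr4:86857348-86857397, minus strand): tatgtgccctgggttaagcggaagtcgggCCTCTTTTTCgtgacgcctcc
Rpl28 (chr7:4792935-4792984, plus strand): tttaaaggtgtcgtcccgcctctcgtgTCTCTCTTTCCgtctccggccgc

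A run of 21 pyrimidines lies across the start of Rpl7a and one of 17 across that of Rpl15, while the longest run of Rps4x, the member that fell most among those called, has 4. Rps6 and Rpl28, which were not called, carried runs of 10 and 11 at their starts. RefSeq gave a window for 52 of the 67 members and for 16990 genes in all. The annotated start was a C followed by 4 pyrimidines in 11 of the 52 members (21.2%), against 2.25% of all windows. A run of 8 or more pyrimidines within the printed stretch was found in 27 members (51.9%) and in 19.6% of all windows.

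These features were found in members that fell and in members that were not called. The C with 4 pyrimidines stood at the start of 2 of the 9 lower members with a window (Rpl15 and Rpl38) and of 9 of the 42 members not called. The run of 8 or more was held by 7 of the 9 and by 19 of the 42. The letters CTTTCC on the gene's strand, within 50 bases of the start and often inside such a run, were found in 12 members (23.1%) against 4.48% of windows, 3 of them lower. CCGGAAG on either strand of the window from 250 bases before to 50 after the start, the letters bound by Ets factors such as GABP, was found in 22 members (42.3%) against 11.7% of windows, and in 3 of the 9 lower ones. AAGATGG on either strand, the letters of YY1, was found in 6 members (11.5%) against 6.52%, and TATAAA ahead of the start in 1 (1.92%) against 2.71%. An annotated start can miss the real one by several bases, and a match of letters is no bound site.

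Among the small subunit genes, 5 of 25 fell and 1 rose, with 17 of the 25 bright. Of all genes 9.36% were lower and 9.79% higher, and of all bright genes 20.3% and 22%. Rps4x, an X-linked protein of the small subunit, had signals of 8.09, 8.27 and 8.53 (lowest, median and highest) in the 15 fasted mice, against 8.33, 8.57 and 8.86 in the 16 fed mice. Of the fasted mice, 9 lay below every fed mouse, and the ranges overlapped. Its change was -0.29 (SE 0.05, adjusted p = 7.32e-05, limma), a level 0.816 times that of fed livers. Rps24, one of the genes mutated in Diamond-Blackfan anaemia in humans, had signals of 6.22, 6.29 and 6.53 in fasted mice, against 6.32, 6.57 and 6.74 in fed mice. Its change was -0.22 (SE 0.04, adjusted p = 0.000181), and 15 of 15 fasted mice lay below the median of the fed mice.

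Rpsa, a small subunit protein also described as a laminin receptor, had signals of 8.15, 8.32 and 8.69 in fasted mice, against 8.35, 8.54 and 8.70 in fed mice. The ranges overlapped up to the top, through a single Fast-Fast-Fast mouse at 8.69, and 8 fasted mice lay below every fed one. The change was -0.20 (SE 0.05, adjusted p = 0.00256). Rps12, which in Drosophila takes part in the removal of cells with a ribosomal protein defect, had signals of 9.19, 9.29 and 9.54 in fasted mice, against 9.34, 9.51 and 9.71 in fed mice. Of the fasted mice, 9 lay below every fed mouse, with a change of -0.19 (SE 0.04, adjusted p = 0.00172). Rps29, a small zinc-binding protein, was dim and ran from 2.14 to 2.51 in fasted mice and from 2.25 to 2.59 in fed mice. Its change of -0.15 (SE 0.05, adjusted p = 0.0132) rests on a probe set close to the array median and was lost with another variance model (adjusted p = 0.0591).

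Rps9, which lies at the entry of the mRNA channel, was the member that rose. Its signals were 7.76, 7.98 and 8.13 in fasted mice, against 7.72, 7.83 and 8.09 in fed mice. The ranges overlapped almost fully, though only 1 of the 15 fasted mice lay below the median of the fed mice. The change was 0.12 (SE 0.04, adjusted p = 0.0366), and it missed the threshold under 6 of 8 other settings, up to an adjusted p of 0.143, and on leaving out any of 14 single arrays.

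In the large subunit, 7 of 42 genes fell and 0 rose, with 27 of the 42 bright. Beside this stand 9.36% lower and 9.79% higher of all genes, and 20.3% and 22% of bright genes. Rpl38, which in mouse embryos is needed to translate a set of Hox mRNAs, had signals of 8.89, 9.06 and 9.19 in fasted mice, against 8.91, 9.37 and 9.73 in fed mice. Of the 16 fed mice, 13 lay above every fasted mouse, and the lowest fed mouse was within the fasted range. The change was -0.28 (SE 0.06, adjusted p = 0.00104), a level 0.821 times that of fed livers. Rpl23a, at the exit of the tunnel through which the new protein leaves, had signals of 7.43, 7.67 and 7.79 in fasted mice, against 7.70, 7.85 and 8.01 in fed mice. Here 10 fasted mice lay below every fed mouse and 11 fed mice above every fasted one, with a change of -0.20 (SE 0.04, adjusted p = 0.000867).

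Rpl4, which lines the same tunnel, had signals of 10.11, 10.26 and 10.37 in fasted mice, against 10.22, 10.43 and 10.66 in fed mice. Of the fed mice, 12 lay above every fasted mouse, and the change was -0.19 (SE 0.04, adjusted p = 0.000881). Rpl15, another Diamond-Blackfan anaemia gene in humans, had signals of 9.34, 9.69 and 9.85 in fasted mice, against 9.67, 9.85 and 10.17 in fed mice. Both ends of this range came from single mice, 9.34 in Fed-Fed-Fast and 10.17 in Fed-Fed-Fed, and the change was -0.20 (SE 0.05, adjusted p = 0.00438). Rpl7a, a large subunit protein, ran from 9.45 to 9.74 in fasted mice and from 9.62 to 9.84 in fed mice, with 10 fasted mice below every fed mouse. Its change of -0.12 (SE 0.04, adjusted p = 0.0156) is a level 0.921 times that of fed livers.

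The weakest of the lower calls were Rpl13 and Rpl21, both large subunit proteins. Rpl13 ran from 8.53 to 9.05 in fasted mice and from 8.58 to 9.22 in fed mice, a change of -0.17 (SE 0.05, adjusted p = 0.0189). Rpl21, among the brightest members with a mean of 11.0, ran from 10.82 to 11.13 in fasted mice and from 10.99 to 11.19 in fed mice, a change of -0.11 (SE 0.04, adjusted p = 0.0486). Both calls were lost when all probe sets of the gene were averaged (adjusted p = 0.314 for Rpl13 and 0.446 for Rpl21).

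**Figure D2:**
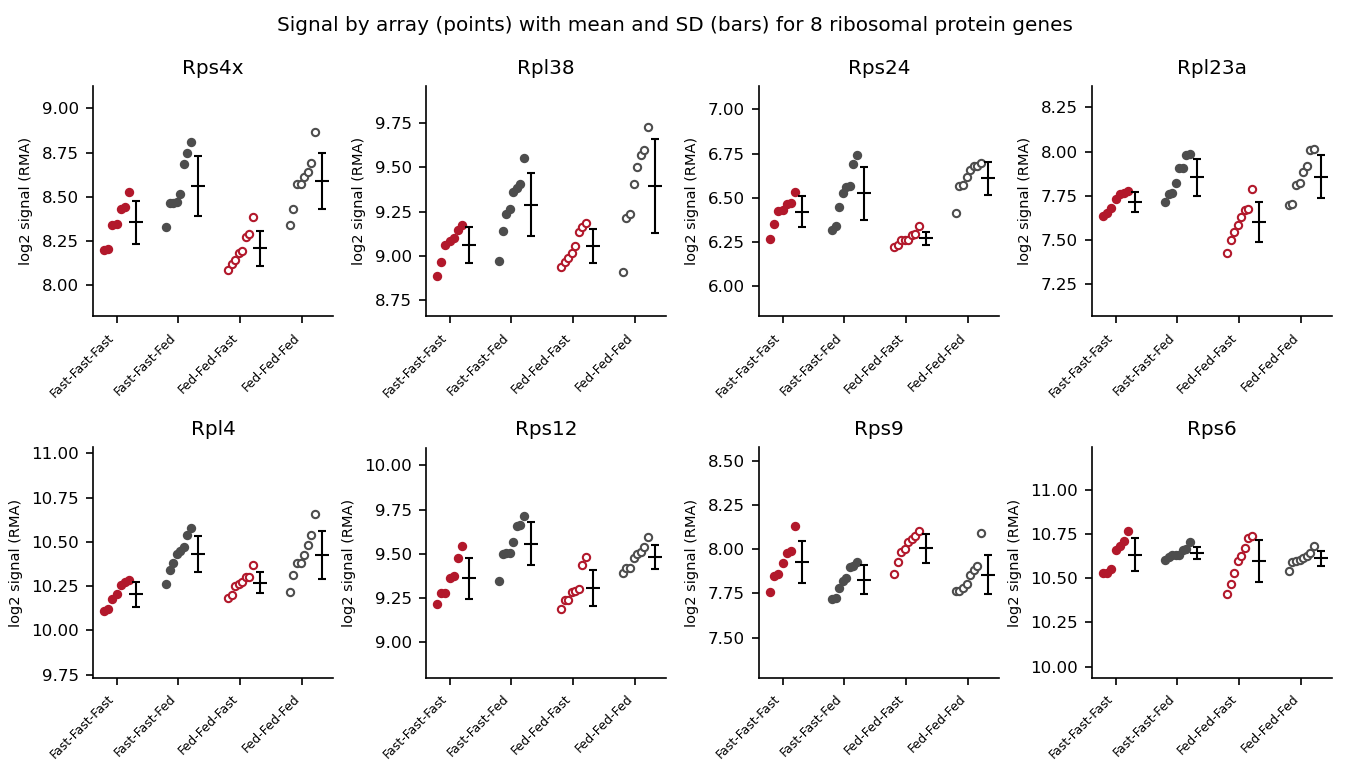
Log2 signal of each array (points, sorted within a group) for 7 called members and for Rps6, with the mean and SD of each group beside the points. Fasted groups are red and fed groups grey, filled with 2 earlier fasts and open with 0, and every panel spans the same log2 range. Fasted points sit lower in the first 6 panels, higher for Rps9 and at the same height for Rps6.

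The members not called include some with the brightest signals. Rps6, the small subunit protein that S6 kinase phosphorylates downstream of mTORC1, had signals of 10.41, 10.63 and 10.77 in fasted mice, against 10.54, 10.63 and 10.71 in fed mice. The medians were equal to 2 decimals, the fasted mice spread wider on both sides, and the change was -0.01 with an interval of -0.09 to 0.06 (adjusted p = 0.883). Rpl28 differed by 0.07 (interval -0.05 to 0.20, adjusted p = 0.509). Rplp2, a protein of the stalk that recruits elongation factors, was among the dimmest members, with a difference of 0.03 (interval -0.21 to 0.28, adjusted p = 0.915).

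Some wider differences with more scatter between arrays missed the threshold. Rps13 ran from 3.68 to 4.92 in fasted mice and from 4.14 to 5.52 in fed mice, a difference of -0.32 (SE 0.13, adjusted p = 0.0799). Rps28 ran from 6.70 to 7.39 in fasted mice and from 6.36 to 7.32 in fed mice, a difference of 0.21 (SE 0.08, adjusted p = 0.0538). Each was called in at least 1 of the other settings, so a place near the threshold does not mark these genes off from the weakest called ones.

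Several members have a paralog with a restricted or separate role, and 0 of the 7 such paralogs measured were called. Of all genes 19.1% were called in either direction, and 4 of the 7 were dim, with a mean under 4, where 3.09% of genes were higher and 3.37% lower, so this count says little about paralogs. Rpl3, a core protein of the large subunit, differed by -0.27 (SE 0.10, adjusted p = 0.0676), and its muscle paralog Rpl3l, at a mean signal of 1.33, by 0.07 (adjusted p = 0.455). Rpl7 differed by -0.18 (adjusted p = 0.124) and Rpl7l1 by -0.13 (adjusted p = 0.435). Rpl22 differed by 0.02 (adjusted p = 0.886) and Rpl22l1, which rises in mice that lack Rpl22, by 0.03 (adjusted p = 0.82). In these 3 pairs neither partner was called.

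Rps27l, a target of p53, differed by -0.08 (adjusted p = 0.402), and Rps27 by 0.15 (adjusted p = 0.463). The testis paralogs Rpl10l and Rpl39l were near the array median or under it, with means of 1.28 and 2.42 and differences of 0.0015 (adjusted p = 0.993) and 0.009 (adjusted p = 0.961). Rpl39 itself differed by -0.04 (adjusted p = 0.791). Rps4l, the transcribed pseudogene, differed by -0.04 (adjusted p = 0.863), where Rps4x fell.

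Of the 41 member probe sets that were not used, which are never brighter than the one used, 33 had the same sign of change as that one and 8 the opposite sign. The 33 include a probe set of Rpl23a and one of Rps19 that repeat the values of the one used, so their sign was fixed in advance. They also count each of 6 identical probe sets of Rps12. Rps12 has 8 probe sets, of which 6 hold identical values, and these 6 changed by -0.22 (adjusted p = 0.000332), the remaining one by -0.17 (adjusted p = 0.0177), beside -0.19 for the one used. Rpl7a has a second bright probe set at -0.11 (adjusted p = 0.0331), and a second one of Rps24 changed by -0.18 (adjusted p = 0.0338). Other probe sets of called members had the same sign and were not called: Rpl13 has one at -0.02 (adjusted p = 0.924), Rpsa at -0.09 (adjusted p = 0.38), Rpl4 at -0.13 (adjusted p = 0.384) and Rps9 at 0.09 (adjusted p = 0.506). Rpl21 has a bright one, at a mean of 10.2, with -0.07 (adjusted p = 0.394). The 8 of opposite sign belong to Rpl3, Rpl35, Rpl41, Rplp0, Rps18, Rps20, Rps26 and Rps3a1, none of which was called with the probe set used, and 0 of the 8 were called. In 7 of them the mean was under 4, and that of Rpl3 was 4.87. Rpl41, not called with the probe set used, has another at -0.15 (adjusted p = 0.0378).

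Ribosomal protein genes have many processed copies in the mouse genome, and probes may bind transcripts of more than 1 of them. The 57 probe sets that name a ribosomal protein gene together with other symbols were therefore kept apart from the members. Of these, 13 were lower (22.8%) and 4 higher (7.02%) in fasted livers, with a median change of -0.07. All 13 and 3 of the 4 were among the 39 with a mean of 4 or more, where 20.3% of genes were lower and 22% higher. Fau, whose product carries ribosomal protein S30 fused to a ubiquitin-like part and whose symbol lies outside the rule, went the other way, with a change of 0.22 (adjusted p = 0.000709).

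Within each history, fewer members were called. With 2 earlier fasts, Fast-Fast-Fast against Fast-Fast-Fed, 2 members were lower (2.99%), Rpl4 and Rps12, and 0 higher, against 5.52% and 6.06% of all genes. With 0 earlier fasts, Fed-Fed-Fast against Fed-Fed-Fed, 5 of the 67 members were lower (7.46%) and 0 higher, against 6.23% and 6.25% of all genes. The 5 are Rps24, Rps4x, Rpl38, Rpl23a and Rpsa. At an unadjusted p under 0.05, 9 members were lower with 2 earlier fasts and 17 with 0, and 2 were higher with either history. In either direction these are 11 of 67 members with 2 earlier fasts and 19 with 0, against 21.7% and 21.8% of all genes. The counts of members lower at the adjusted threshold moved with the setting, from 1 to 5 with 2 earlier fasts and from 4 to 14 with 0. With 0 earlier fasts, a variance model with an intensity trend gave 17.9% of members lower against 6.23% of genes, and a fit of genes with a mean of 4 or more gave 31.8% of 44 members against 17.8% of genes. With 2 earlier fasts the same settings gave 2.99% of members against 5.63% of genes, and 11.4% against 16.1%. Other settings with 0 earlier fasts, fits with arrays left out aside, gave 5.97% to 8.96% of members against 5.64% to 6.36% of genes.

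The values of these 7 genes show both responses side by side. Rps24 had 6.27, 6.43 and 6.53 in Fast-Fast-Fast livers, against 6.32, 6.54 and 6.74 in Fast-Fast-Fed livers, which overlap. It had 6.22, 6.26 and 6.34 in Fed-Fed-Fast livers, against 6.41, 6.64 and 6.70 in Fed-Fed-Fed livers, which do not. The change was -0.10 (adjusted p = 0.372) with 2 earlier fasts and -0.34 (adjusted p = 7.94e-05) with 0. The difference between both responses was 0.24 (SE 0.09, unadjusted p = 0.0101, limma), with an adjusted p of 0.999 over all genes, so it did not pass. With the mean of all probe sets of the gene, the change with 0 earlier fasts was -0.20 and no longer called (adjusted p = 0.104), and the difference between both responses was 0.08.

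The change of Rps4x was -0.20 (adjusted p = 0.088) with 2 earlier fasts and -0.38 (adjusted p = 0.000312) with 0. For Rpl38 it was -0.23 (adjusted p = 0.117) with 2 and -0.34 (adjusted p = 0.00749) with 0. For Rpl23a it was -0.14 (adjusted p = 0.173) with 2 and -0.25 (adjusted p = 0.00321) with 0. The differences between the responses of Rps4x, Rpl38 and Rpl23a were 0.18, 0.11 and 0.11, each with an adjusted p of 0.999. The change of Rpsa was -0.16 (adjusted p = 0.139) with 2 and -0.23 (adjusted p = 0.0191) with 0. Rpl4 and Rps12 had the lower value with 2 earlier fasts. The change of Rpl4 was -0.23 (adjusted p = 0.0101) with 2 and -0.16 (adjusted p = 0.0882) with 0, and that of Rps12 was -0.20 (adjusted p = 0.036) with 2 and -0.17 (adjusted p = 0.0584) with 0. Their differences between responses, -0.07 and -0.02, had the same adjusted p of 0.999. With the mean of all probe sets, the call of Rpl4 with 2 earlier fasts was lost (adjusted p = 0.131), as was that of Rpsa with 0, with a change of -0.10 (adjusted p = 0.431). The Rps12 call with 2 earlier fasts was lost on leaving out any of 9 single arrays, up to an adjusted p of 0.0933.

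Across the 67 members, both responses correlated with a Pearson's r of 0.48 and a Spearman's rho of 0.52, and 45 had the same sign (67.2%). Over all 22180 genes r was 0.85, rho 0.55 and the share of the same sign 65.8%. Among members with a mean of 4 or more, r was 0.59 and rho 0.68, with the same sign in 32 of 44 (72.7%), against an r of 0.93, a rho of 0.83 and 80.9% for all such genes. These are correlations across genes, which are not independent replicates, and the 2 responses share no array but share 1 normalization. The widest member change had a size of 0.49 with 0 earlier fasts and 0.33 with 2, while 318 and 296 genes were called beyond 2-fold. A correlation depends on the range of the changes, so the lower r does not show that members respond less steadily.

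**Figure D3:**
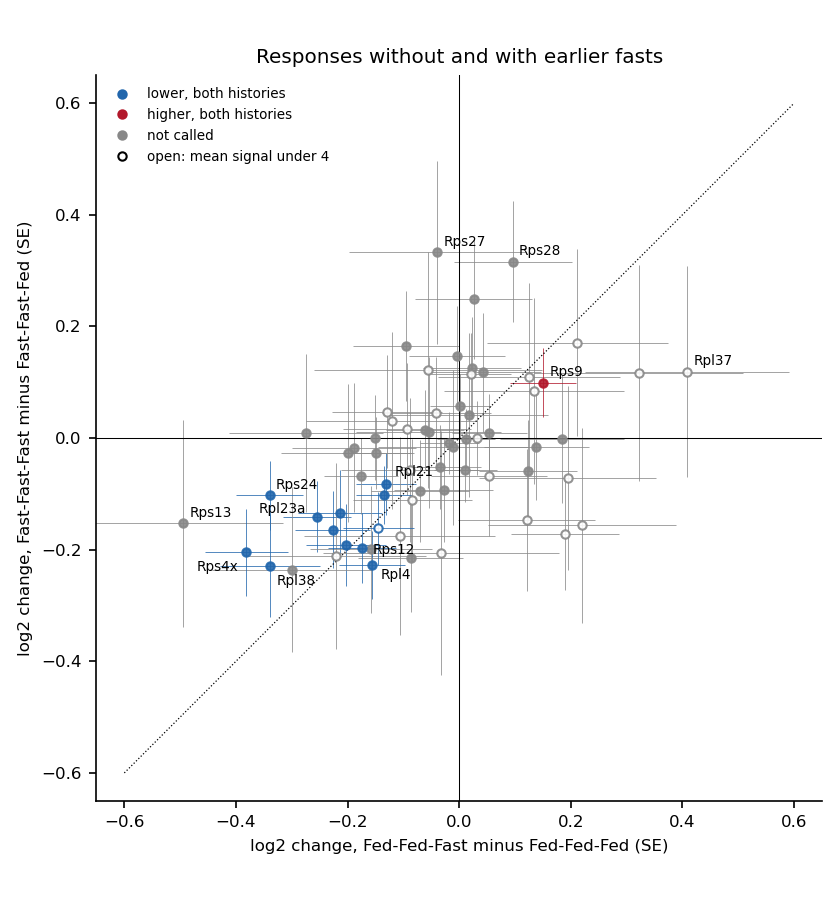
Log2 change of the 67 members after the final fast with 2 earlier fasts (vertical) and with 0 (horizontal), with standard errors, and a dotted line of equal change. Colours give the call averaged over both histories, and open points have a mean signal under 4. Rps24 lies above the line, at -0.10 with 2 earlier fasts and -0.34 with 0, and Rpl4 below it, at -0.23 with 2 and -0.16 with 0.

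Earlier fasts alone left no called difference in any member. Between fed livers, Fast-Fast-Fed against Fed-Fed-Fed, 0 of 67 members and 0% of 22180 genes passed in limma, and at an unadjusted p under 0.05 there were 3 members and 1245 genes. The 3 were Rps27, Rpl5 and Rpl39l. Rps27, a zinc-binding small subunit protein, had 3.92, 4.65 and 5.04 in Fast-Fast-Fed livers, against 4.54, 4.84 and 5.36 in Fed-Fed-Fed livers. The groups overlapped, and the difference was -0.41 (SE 0.16, unadjusted p = 0.0142, adjusted p = 0.856). Rpl5, which with 5S rRNA can bind the p53 regulator Mdm2, had 4.20, 4.55 and 4.66 in Fast-Fast-Fed livers, against 3.87, 4.18 and 4.63 in Fed-Fed-Fed livers. Its difference was 0.26 (SE 0.11, adjusted p = 0.856), and that of Rpl39l 0.21 (SE 0.10, adjusted p = 0.888).

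Between fasted livers, Fast-Fast-Fast against Fed-Fed-Fast, again 0 of 67 members and 0% of genes passed, with 3 members and 996 genes at an unadjusted p under 0.05. Rpl30, a dim large subunit member here, had 0.99, 1.26 and 1.82 in Fast-Fast-Fast livers, against 1.38, 1.82 and 2.08 in Fed-Fed-Fast livers. The difference was -0.45 (SE 0.16, unadjusted p = 0.00967), with overlapping groups and an adjusted p of 1 over all genes. Rpl37a, as dim, differed by -0.32 (SE 0.13) and Rps24 by 0.15 (SE 0.06), each with an adjusted p of 1. With the mean of all its probe sets Rps24 differed by 0.02.

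For the difference between the 2 responses, 0 of 67 members and 0% of genes passed, with 2 members and 1023 genes at an unadjusted p under 0.05. These were Rps24, given above, and Rpl39l, with a difference of -0.36 (SE 0.14, adjusted p = 0.999). Rps19, the gene most often mutated in Diamond-Blackfan anaemia in humans, came next with 0.26 (SE 0.14, adjusted p = 0.999). The intervals bound what could have been missed. They lay within 0.5 either side of 0 for 61 of 67 members between fed livers, for 59 between fasted livers and for 47 in the difference between responses, against 93.1%, 92.6% and 73.2% of all genes.

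The level of the whole set moved little. The mean log2 signal of the 44 bright members per array averaged 7.64 ± 0.05 in Fast-Fast-Fast (SD, n = 7) and 7.67 ± 0.07 in Fast-Fast-Fed (n = 8), and 7.62 ± 0.05 in Fed-Fed-Fast (n = 8) and 7.72 ± 0.06 in Fed-Fed-Fed (n = 8). Between mice of the same group the members moved together only weakly. The median correlation of their deviations from the group means over 31 arrays was 0.11 for the 946 pairs of bright members and 0.03 for all pairs of 7863 bright genes, a description with no test, in which all pairs share the same arrays and 1 normalization.

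Other genes of the translation machinery were set beside the members, and since most of them are bright, their calls are read against the genes with a mean of 4 or more, of which 22% were higher and 20.3% lower. Of 52 measured ribosome biogenesis genes, 16 rose and 0 fell, with a median of 0.14, and of the 46 bright ones 15 rose (32.6%). Eif6, which keeps free large subunits from joining, had 6.75, 7.06 and 7.53 in fasted livers, against 6.09, 6.41 and 6.92 in fed livers, a rise of 0.55 (SE 0.08, adjusted p = 3.31e-06). The nucleolar assembly factors Gnl2, Noc2l and Nop2 rose by 0.44, 0.42 and 0.36. Of 22 genes of RNA polymerase I and its factors, 6 rose and 1 fell, with a median of 0.125, and of the 16 bright ones 5 rose (31.2%). Polr1a, the largest subunit of that polymerase, rose by 0.32 (adjusted p = 0.000112), and Polr2e, a subunit shared with the other nuclear polymerases, by 0.48 (adjusted p = 9.81e-06).

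Of 28 initiation factor genes, 8 rose and 1 fell, with a median of 0.105, and of the 27 bright ones 8 rose (29.6%). Eif5 had 8.87, 9.19 and 9.32 in fasted livers, against 8.48, 8.85 and 9.15 in fed livers, a rise of 0.33 (adjusted p = 7.19e-05), and Eif3j1, Eif2b2 and Eif2b3 rose by 0.37, 0.28 and 0.26. Of 21 further genes listed for TOP mRNAs, most of them elongation and initiation factors, 7 rose (33.3%) and 1 fell. Sources differ on whether Nap1l1 and Tmem97 have TOP mRNAs, and without both, 6 of 19 rose and 0 fell. Nap1l1, a histone chaperone, rose by 0.57 (adjusted p = 2.35e-07) and Eif3k by 0.32 (adjusted p = 3.76e-06), while Tmem97, a membrane protein of sterol handling, fell by 0.47 (adjusted p = 5.9e-07).

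Mitochondrial ribosomal protein genes split both ways. Of 71 measured, 16 rose and 9 fell, with a median of 0.03. Of the 64 bright ones 15 rose (23.4%) and 9 fell (14.1%), shares near or under those of all bright genes. Mrpl17 had 7.52, 7.77 and 7.97 in fasted livers, against 6.71, 7.01 and 7.28 in fed livers, which do not overlap, and rose by 0.77 (adjusted p = 2.59e-13). Mrps27 fell by 0.63 (adjusted p = 3.78e-07). Both changes are wider than any among the cytosolic members.

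Of 40 genes of mTORC1 and of the control of TOP mRNAs, 5 rose and 7 fell, with a median of -0.04. Of the 30 bright ones 4 rose (13.3%) and 6 fell (20%), shares under or near those of all bright genes. Sesn2, an inhibitor of mTORC1 that senses leucine, rose by 0.86 (adjusted p = 1.01e-06), while its relative Sesn3 fell by 0.43 (adjusted p = 2.43e-06). Eef2k, the kinase that slows elongation, fell by 0.57 (adjusted p = 0.000415), and Tbc1d7, a subunit of the TSC complex that restrains mTORC1, rose by 0.43 (adjusted p = 0.00209). Sesn2 and Eef2k were dim, with means of 3.90 and 3.44. Of 15 transcription factors tied to ribosomal protein promoters, Tbp rose by 0.30, and E2f1, dim at a mean of 2.68, and Elf1 fell by 0.20 and 0.18. Of the 12 bright ones 8.33% rose and 8.33% fell. Of 14 genes listed for ribosome quality and the surveillance of ribosomal proteins, all bright, Zcchc4 rose by 0.28 and Nemf fell by 0.23 (7.14% each way).

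**Figure D4:**
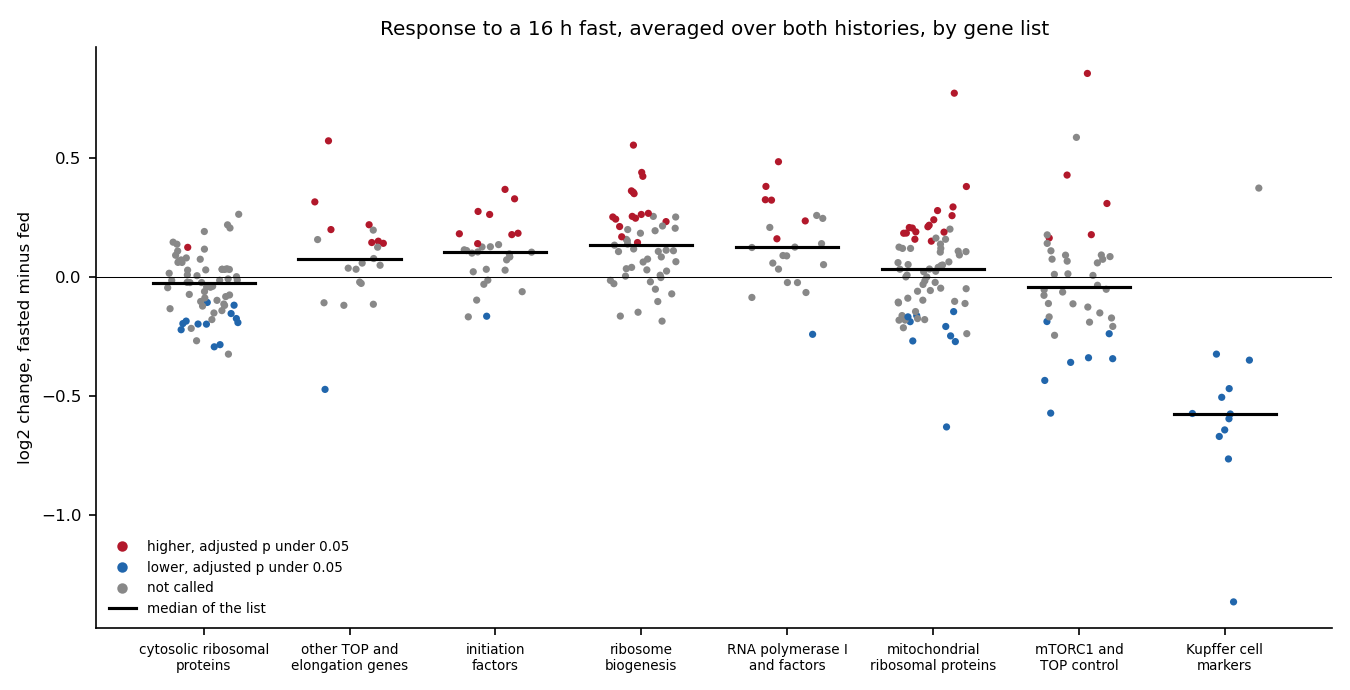
Log2 change of each measured gene (fasted minus fed, averaged over both histories) in 8 lists, with the median of each list as a black bar. Red points were called higher, blue points lower and grey points neither. Cytosolic ribosomal proteins gather within 0.32 of 0, biogenesis genes reach 0.55, and 11 of 12 Kupffer cell markers are blue.

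Markers of other liver cells moved with the final state as well. Kupffer cells, the macrophages of the liver, had 12 measured markers, 11 lower and 0 higher, at a median of -0.57, and Folr2 had 3.28, 4.52 and 5.49 in fasted livers, against 4.89, 5.92 and 6.84 in fed livers, a fall of 1.36. The summed signal of these markers on the linear scale was 379 to 689 in Fast-Fast-Fast and 425 to 1100 in Fast-Fast-Fed arrays, and 362 to 785 in Fed-Fed-Fast and 508 to 1350 in Fed-Fed-Fed arrays, with every marker at a mean of 4 or more. Of 12 stellate cell markers 4 fell and 1 rose, of 12 sinusoidal endothelial markers 4 fell and 1 rose, and of 11 lymphocyte markers 2 fell and 0 rose. Of 9 neutrophil and monocyte markers 1 rose, Lcn2, and 0 of 5 cholangiocyte markers were called. The Kupffer and endothelial markers were all bright, and of all bright genes 20.3% were lower and 22% higher. A mean under 4 was found for 10 lymphocyte, 8 neutrophil and monocyte, 4 cholangiocyte and 4 stellate markers. Of all genes that dim 3.09% were higher and 3.37% lower, so the lymphocyte, neutrophil and cholangiocyte counts say little about those cells. In bulk liver, fewer cells of a type and less RNA per cell cannot be told apart. The part of these cells in the falls of the ribosomal protein genes was not tested.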

How the data were processed

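Log2 values for 41345 probe sets on 31 arrays were deposited by the authors after RMA, per the submitters' processing notes. RMA in general corrects background, equalises the distributions of arrays and summarises probes. The version of RMA and any batch are not given in the sources used here. Per the labels, each array took 100 ng of total RNA of 1 mouse, and the title of the array gives its group.

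The platform annotation gave 23521 probe sets 1 symbol, 1814 several and 16010 none, and the brightest probe set by its mean on the 31 arrays was used for each of 22180 genes. All 4 groups were fitted as group means with limma 3.58.1 in R 4.3.3, with the data.table package (1.17.8), and p-values (2-sided) were Benjamini-Hochberg adjusted over all genes, with 0.05 as the threshold. Each p-value weighs a difference of group means against the spread between mice of the same group, with variances moderated across genes. Sequences came from RefSeq's GRCm38.p6 windows. The fit was tested on simulated data. Figures used matplotlib 3.10.9 and pandas 2.3.3 in Python 3.11.15.

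Named are the called members (up to 12 each way), paralogs with a restricted role and their partners, the 3 brightest and 3 dimmest members, the 3 smallest p of comparisons without calls, and up to 4 called genes of each other list. Rps13, Rps28, Rpl37, Rpl41, Rpl6l, Rps14, Rps16, Alb, Ttr and the genes of opposite probe sets were named after their values were seen. The members and lists were chosen with earlier results of these data known, and no list was tested as a set. A gene list of 6 erythroid markers had no measured gene. Alternatives changed the variance model, the samples in the fit, the normalization, the centring, array weights, the choice of probe set and the filter on dim genes, left out arrays, or added the replicate number as a block.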

Additional observations from a re-analysis of the deposited data

Results flagged for a closer look

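Among 32 named members in 4 groups, 128 tests were made for a single array far from the others of its group, with Dixon's ratio of the gap to the range. Chance flags about 1 in 20 groups, and 11 stood apart here. With 2 earlier fasts, Rpsa was high in Fast-Fast-Fast replicate 7 (8.69, next 8.39) and Rps27l was low in Fast-Fast-Fast replicate 2 (5.26, next 5.43). Among Fast-Fast-Fed mice, Rpl22 was low in replicate 1 (3.18, next 3.47), Rpl5 was low in replicate 8 (4.20, next 4.45) and Rps27l was low in replicate 5 (5.11, next 5.41).

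In Fed-Fed-Fast mice, Rpl15 was low in replicate 1 (9.34, next 9.64), Rps19 was low in the same replicate (6.68, next 7.00), and Rplp2 was high in replicate 3 (2.56, next 1.51). In Fed-Fed-Fed mice, Rpl15 was high in replicate 3 (10.17, next 9.93), Rps24 was low in replicate 1 (6.41, next 6.57), and Rps9 was high in replicate 8 (8.09, next 7.91). When each array was left out in turn, the averaged change of Rpl15 stayed between -0.21 and -0.17, and that of Rpsa between -0.22 and -0.18.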

How the results depend on the processing

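Averaged over both histories, 8 of the 12 lower members kept their call in all 8 other settings, while Rps29 and Rpl7a lost it in 1, Rpl13 in 2 and Rpl21 in 3. For some of the 8 the mean of all probe sets was no real change. Rps4x, Rpl38 and Rpl15 have a single probe set, and those of Rpl23a hold identical values. The count of lower members was 11 to 14 when each array was left out in turn. The count of higher members, 1 as reported, was 2 with an intensity trend and robust variances and 2 among genes with a mean of 4 or more, and 0 with cyclic loess, with centring on genes of mean 6 or more, with array weights and without the 3 arrays of narrowest spread, an alternative chosen after seeing the data (Fed-Fed-Fast 1, Fed-Fed-Fed 2 and Fast-Fast-Fed 5). It was 0 to 2 when single arrays were left out, with 2 without Fast-Fast-Fed 2 or 4, Fed-Fed-Fast 6 or Fed-Fed-Fed 5. Rps9 is lost without Fast-Fast-Fast 5, 6 or 7, Fast-Fast-Fed 1, 7 or 8, Fed-Fed-Fast 2, 3, 5 or 7, or Fed-Fed-Fed 1, 2, 3 or 7. Rpl21 stays called only without Fast-Fast-Fast 7, Fast-Fast-Fed 5 or 8, Fed-Fed-Fast 2, 4, 6 or 8, or Fed-Fed-Fed 1, 6 or 7.

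With 2 earlier fasts, 2 lower members became 5 among genes with a mean of 4 or more, 4 with cyclic loess, 1 with only the groups of the comparison and 1 with the mean of all probe sets. The trend and robust variances and the filter each gave 1 higher. Leaving out arrays gave 1 to 3 lower, with 1 without Fast-Fast-Fast 1 to 5 or Fast-Fast-Fed 1, 2, 3 or 5, and 0 to 1 higher, with 1 without Fast-Fast-Fed 1, 2 or 4, Fed-Fed-Fast 2 or 7 or Fed-Fed-Fed 5 or 7. With 0 earlier fasts, 5 lower members became 12 with the trend and robust variances, and 14 among genes with a mean of 4 or more, where 1 was higher and fewer genes are tested. Leaving out single arrays gave 5 to 9 lower, with 9 without Fed-Fed-Fast 2, and 0 to 1 higher, with 1 without Fed-Fed-Fed 8. With the mean of all probe sets, Rps24 and Rpsa lost their calls and Rps12 gained one. The cause was not tested. Effects of history and the difference between responses had 0 members called in every setting, 0 to 0 with arrays left out, and no change of a member named for its p there changed sign. The median over members did: it was 0.0243 in the difference between responses and ran from -0.0136 (mean of all probe sets) to 0.0632, below 0 also without Fed-Fed-Fast 1, Fed-Fed-Fed 4 or Fast-Fast-Fed 8, and it was 0.0183 between fasted livers, against -0.006 without Fast-Fast-Fast 7.

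The labels do not say whether replicate numbers pair the mice. Over 45 same-numbered pairs the correlation of deviations ran from -0.06 to 0.12, with 3 above 0.1. Pairs with different numbers were not compared, so these values do not settle whether mice were paired. With the number as a replicate block, 13 members were called in the average over both histories, 11 of them shared with the fit without it, with Rpl21 and Rps9 lost and Rps13 and Rps28 gained. A fit of only the groups compared could not be made for the average and the difference between responses, which use all groups. The files hold no detection calls, so whether the 23 members with a mean under 4 lay above background was not tested.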
